A study of Saccharomyces cerevisiae with 24 samples.

Results

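The genes described here encode the proteins of the yeast mitochondrial ribosome. They were taken by name: every gene whose standard symbol is MRPL, MRPS, MRP or RSM followed by a number. The array carried 66 of them among 6576 systematic names, each with 1 probe, and RSM28 was not matched. All 66 were above background on all 24 arrays and all entered the test, which covered 6209 genes. By known assignment, 38 belong to the large subunit and 27 to the small subunit. MRP8 was assigned to neither, since it was named from its sequence and its function is unknown.

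The cells were budding yeast of strain W303 (Mat a), all deleted for chromosomal IRE1 and carrying either ire1ΔLD (ΔLD cells here; by its name a deletion form of Ire1) or full Ire1 (IRE1 cells). Each of these backgrounds was profiled in 4 states, with 3 arrays in each of the 8 groups: treated with 2 mM DTT for 1 h; labelled Δopi3 and grown overnight with 1 mM choline; labelled Δopi3 without choline; and untreated. All cultures grew at 30 °C in selective synthetic complete medium, so every group, untreated ones included, is a complemented Δire1 strain. Ire1 is a stress sensor of the endoplasmic reticulum, DTT reduces disulfide bonds there, and the enzyme encoded by OPI3 makes phosphatidylcholine, which cells can also make from choline. The study set DTT as a protein stress and Δopi3 as a lipid stress. The labels do not say that same-group arrays came from separate cultures, so the p-values measure the spread between these arrays, which may be technical.

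The mitochondrial ribosome makes a handful of hydrophobic proteins, mostly core subunits of the respiratory chain and the ATP synthase. Nearly all of its own proteins are encoded in the nucleus, made in the cytosol and imported, and many keep a counterpart in bacterial ribosomes while others exist only in mitochondria. In yeast their mRNA levels are known to move together with nutrients and growth, and the RNA-binding protein Puf3 is known to bind many of these mRNAs.

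Values are log2 signals minus the 75th percentile of the array, and a level is never compared between genes, since probes differ. A gene was called when its adjusted p from limma was under 0.05 (two-sided, Benjamini-Hochberg over 6209 genes). Most genes described singly were picked among called genes whose groups did not overlap, so their separation is a condition of the choice. That percentile lay between 6951 and 15890 signal units, the share of spots well above background was 90.6% to 95.8%, and arrays of a group correlated at 0.983 to 0.998. In bulk RNA, a smaller share of an mRNA cannot be told apart from more of all other RNA. Not all arrays labelled Δopi3 lacked OPI3 signal. It stood at 23.3% of its untreated level on replicate 3 and 1.53% on replicate 2 of Δopi3 ΔLD cells, at 31.0% and 0.752% on the same replicates of Δopi3 IRE1 cells, and at 11.4% on replicate 3 of choline-grown Δopi3 IRE1 cells. The other 7 arrays labelled Δopi3 were not above background for OPI3. Counts, gene lists and the genes described in full are therefore given also without the 5 arrays above background, which leaves 1 array in either group labelled Δopi3 without choline, assumed to vary like the other groups, and without the 3 arrays over 10%. The array left is replicate 1, on slide 1, set against untreated arrays of 3 slides with no term for slide. Counts in these fits stand without the share of all genes called in the same fit. A changed count there cannot be read as particular to the members, nor as an effect of OPI3 signal alone.

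Seen array by array, the 66 genes sat lowest in Δopi3 IRE1 cells without choline. Set against the median of all genes, their median change from the untreated IRE1 mean was -0.17, -0.10 and -0.07 on the arrays of Δopi3 ΔLD cells. In Δopi3 IRE1 cells it was -0.38, -0.34 and -0.29, so the arrays of ΔLD and IRE1 cells do not overlap in this state. With choline it was -0.03, 0.08 and 0.02 in Δopi3 ΔLD cells and 0.10, 0.04 and -0.03 in Δopi3 IRE1 cells, a range shared with untreated arrays of either background. After DTT it was -0.09, -0.11 and -0.11 in ΔLD cells, within the range of Δopi3 ΔLD cells, and -0.14, -0.19 and -0.24 in IRE1 cells. Untreated arrays held 0.08, 0.11 and -0.01 in ΔLD cells and 0.09, 0.01 and -0.11 in IRE1 cells, and the lowest array of each untreated group was replicate 3.

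**Figure D1:**
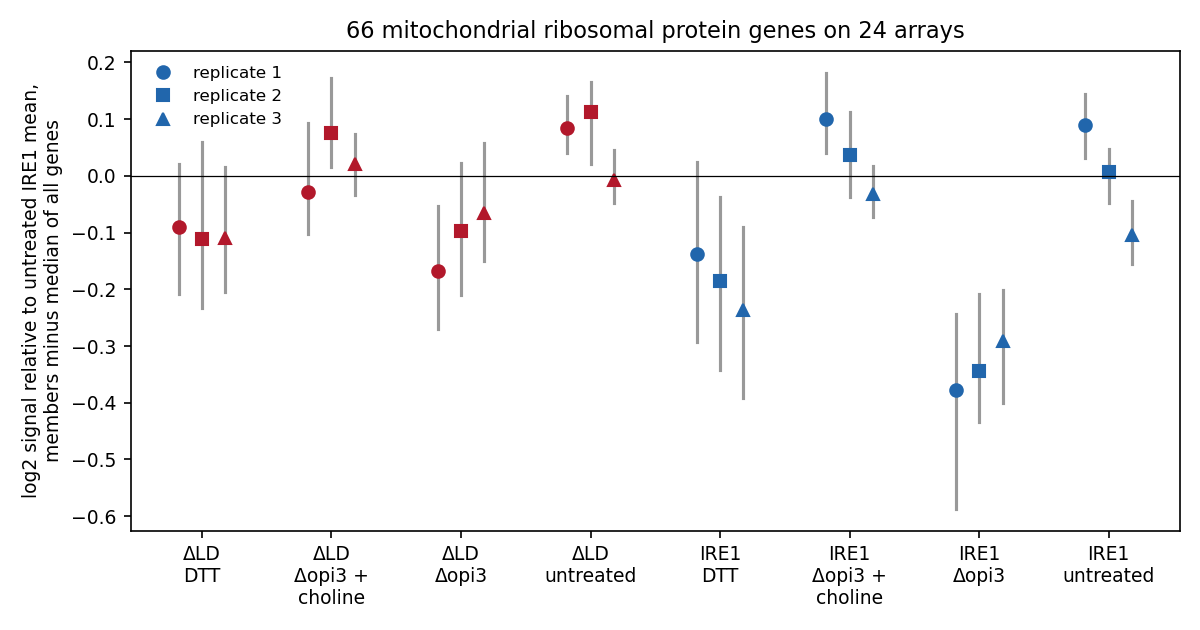
Median log2 signal of the 66 genes relative to the untreated IRE1 mean, minus the same median over all genes, on each of the 24 arrays (points; shape gives the replicate; grey lines span the middle 50% of the 66 genes). The 3 arrays of Δopi3 IRE1 cells lie between -0.38 and -0.29, below every other array in the plot.

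In IRE1 cells the Δopi3 label went with lower mRNA for most of the mitochondrial ribosome. Of the 66 genes, 52 were lower and 1, MRP8, was higher in Δopi3 than in untreated cells, against 35.1% of all genes lower and 32.2% higher. Their median log2 change was -0.36, and that of all genes -0.02. Large-subunit genes were lower in 32 of 38 cases (median -0.39) and small-subunit genes in 20 of 27 (median -0.31). Genes with a bacterial counterpart were lower in 32 of 41 cases, and mitochondria-specific ones in 19 of 23. None of the 52 reached a 2-fold change, against 2.01% of all genes that were lower by at least that much. Under scaling to the arrays' E1A control probes, which moved the median of all genes to 0.21, 1 gene was lower and 1 higher, and the members' median was -0.13.

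RSM26, which encodes a small-subunit protein related to superoxide dismutases, showed the largest fall. Its values were -2.02, -1.96 and -1.64 in Δopi3 IRE1 cells, against -0.77, -1.11 and -1.05 in untreated IRE1 cells. No array of one group reached into the other, and the least low of the Δopi3 arrays was replicate 3, the one with OPI3 at 31.0%. The change was -0.90 ± 0.11 (SE; adjusted p = 1.5e-06, limma), a signal of 0.538 times the untreated one. It was -1.25, -0.84 and -0.59 within the 3 slides, each of which carried 1 array of every group. It was -1.04 without the arrays above background for OPI3 and -1.01 without those over 10%, and called in both.

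MRPS35, a small-subunit protein found only in mitochondria, had -0.32, -0.33 and -0.19 in Δopi3 IRE1 cells and 0.57, 0.41 and 0.39 in untreated IRE1 cells. The groups are far apart relative to their spread, and the change was -0.73 ± 0.07 (adjusted p = 2.1e-08, limma). In the large subunit, MRPL8, the counterpart of bacterial ribosomal protein bL17, had -0.14, -0.13 and 0.05 in Δopi3 IRE1 cells and 0.70, 0.74 and 0.64 in untreated IRE1 cells. Every Δopi3 array lay below every untreated one, with a change of -0.77 ± 0.06 (adjusted p = 6.4e-09, limma). MRPL13, a mitochondria-specific protein, had -2.06, -1.91 and -1.68 in Δopi3 IRE1 cells and -1.22, -1.12 and -1.32 in untreated IRE1 cells, a change of -0.66 ± 0.08. The changes without the arrays above background for OPI3 and without those over 10% were -0.78 and -0.78 for MRPS35, -0.83 and -0.83 for MRPL8, and -0.84 and -0.76 for MRPL13, all called.

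The other large falls were those of MRPL37 (-0.69 ± 0.07), specific to mitochondria, and MRPL49 (-0.68 ± 0.09), the counterpart of bL21. Neither gene had overlapping groups, and both stayed called without the arrays that carried OPI3 signal (-0.62 and -0.72 for MRPL37, -0.65 and -0.71 for MRPL49). The 13 genes that were not called were MRP2, MRP10, MRP20, MRP21, MRPL3, MRPL16, MRPL27, MRPL28, MRPL50, MRPS16, MRPS18, RSM7 and RSM19. Of the genes singled out for the strength of their probes' signal, MRPS12 (-0.31 ± 0.07), RSM18, MRPL25, MRPL24 and MRPL32 (-0.49 ± 0.13) were lower and RSM7 was not called. RSM22, a methyltransferase-like protein of the small subunit, was lower too (-0.28 ± 0.06). Without the arrays above background for OPI3 the changes were -0.12 for MRPS12, -0.20 for MRPL25 and -0.16 for RSM22. Within slide 1, which holds the Δopi3 array left in that fit, they were -0.10, -0.34 and -0.25. Without the arrays over 10% these genes were still called.

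These falls were counted again without the arrays that carried OPI3 signal. Leaving out the arrays above background for OPI3 gave 45 genes lower and 1 higher, with a median of -0.35 (28 of 38 large-subunit and 17 of 27 small-subunit genes lower), and leaving out those over 10% gave 52 lower and 1 higher, with a median of -0.38. Within the slides, the members' median minus that of all genes was -0.51, -0.35 and -0.21 on slides 1, 2 and 3. The OPI3 signal of the Δopi3 array differed in the same order of slides, and its part in this was not tested.

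In ΔLD cells the Δopi3 label went with fewer called falls. Here 37 of the 66 genes were lower and 2, MRP8 and MRP20, were higher in Δopi3 than in untreated cells, against 27.3% of all genes lower and 29.2% higher. The median change was -0.18 for the members and 0.00 for all genes. Lower genes made up 25 of 38 in the large subunit (median -0.21) and 12 of 27 in the small subunit (median -0.15). All 37 were also among the 52 lower in IRE1 cells, that is 71.2% of those 52. Without the arrays above background for OPI3 the counts were 22 lower and 3 higher (median -0.19), with 15 large-subunit and 7 small-subunit genes lower, and without those over 10% they were 36 and 2 (median -0.20). The count depends on which arrays are in the fit. Without replicate 1, 2 or 3 of every group, 25, 12 and 32 genes were lower and 1, 1 and 2 higher. Of all genes, 20.9%, 11.6% and 24.8% were lower in these fits and 23.4%, 18.2% and 28% higher. With E1A scaling the only called gene was 1 higher, while the members' median stayed below 0, at -0.20, which is lower than the -0.13 of IRE1 cells in that scaling.

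**Figure D2:**
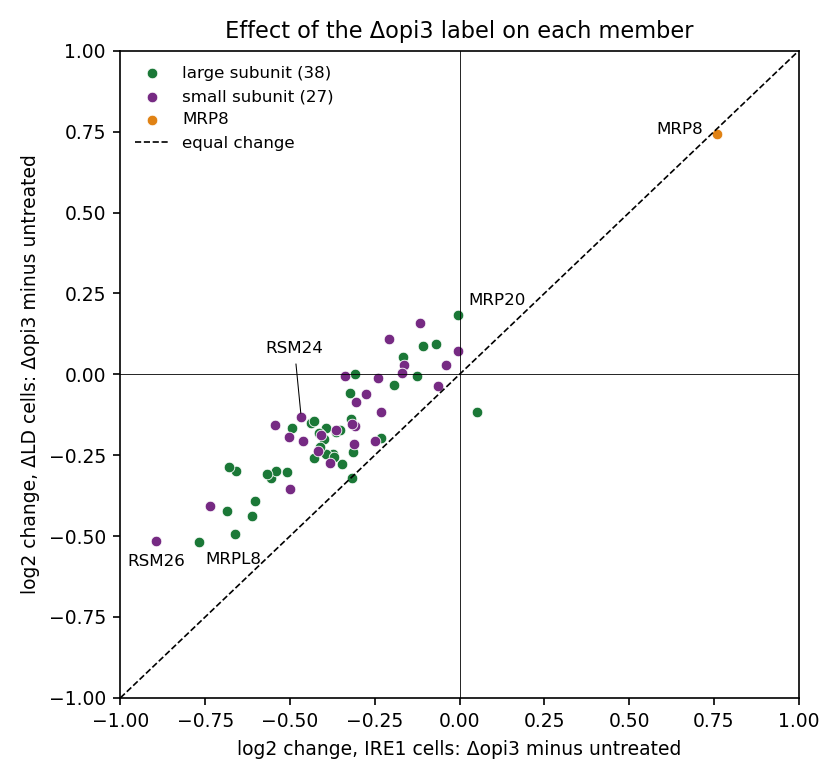
Log2 change in Δopi3 against untreated cells for each of the 66 genes, in ΔLD cells (vertical axis) and IRE1 cells (horizontal axis), by subunit; the dashed line marks equal change. Most points lie above the line and left of 0, so their changes were less negative in ΔLD cells (with E1A scaling the median difference turns to -0.06), while MRP8 sits near the line at 0.74 and 0.76.

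MRPL8 and RSM26 fell most in this background. RSM26 had -1.54, -1.54 and -1.33 in Δopi3 ΔLD cells and -0.84, -0.99 and -1.04 in untreated ΔLD cells (change -0.51 ± 0.11, adjusted p = 0.00083, limma). MRPL8 had 0.19, 0.22 and 0.28 in Δopi3 ΔLD cells and 0.75, 0.82 and 0.66 in untreated ΔLD cells (change -0.52 ± 0.06). In both genes the groups stayed apart, as they did in MRPL13 (-0.49 ± 0.08), MRPL20 (-0.44 ± 0.07), MRPL37 (-0.42 ± 0.07) and MRPS35 (-0.41 ± 0.07). All 6 stayed called without the arrays above background for OPI3, with changes between -0.61 (MRPL13) and -0.35 (MRPL37), and without those over 10%. The 15 genes lower in IRE1 cells but not called in ΔLD cells included the small-subunit genes RSM10, RSM22, RSM23, RSM24, MRP13, MRP51, MRPS9 and MRPS17. A call in one background only does not show a difference, which is tested next.

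Directly compared in the Δopi3 state, ΔLD cells had more of these mRNAs than IRE1 cells. Of the 66 genes, 41 were higher and none lower in Δopi3 ΔLD cells, against 6.91% of all genes higher and 9.23% lower. The median difference was 0.25 for the members and 0.00 for all genes, and it covered 24 of 38 large-subunit and 17 of 27 small-subunit genes. Within the slides the members' median minus that of all genes was 0.24, 0.25 and 0.27. The median difference moved little when arrays were left out, and the count moved a lot. Without the arrays above background for OPI3, 4 genes were called (2 in each subunit) with a median of 0.26, and without those over 10% there were 34 with a median of 0.25. With only these groups in the fit 2 were called, and without replicate 2 of every group 1 was called. Without that replicate 0.934% of all genes were higher and 1.63% lower. With E1A scaling none was, at a median of 0.41 and a median of 0.16 over all genes. No member was called between untreated ΔLD and IRE1 cells (4 at an unadjusted p under 0.05, limma), where 0.0483% of all genes were higher and 0.741% lower.

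RSM24, a mitochondria-specific protein of the small subunit, differed most. Its values were -2.27, -2.14 and -2.14 in Δopi3 ΔLD cells and -2.71, -2.65 and -2.60 in Δopi3 IRE1 cells. The groups are separated, with a difference of 0.47 ± 0.07 (adjusted p = 4.8e-05, limma), a signal 1.39 times that of IRE1 cells. MRP13, also specific to mitochondria and in the small subunit, had -0.45, -0.42 and -0.41 in Δopi3 ΔLD cells and -0.84, -0.87 and -0.85 in Δopi3 IRE1 cells. Both groups were tight, and the difference was 0.43 ± 0.07 (adjusted p = 0.00017, limma). MRPL49 followed with 0.41 ± 0.09, from -0.10, -0.24 and -0.09 in Δopi3 ΔLD cells and -0.52, -0.65 and -0.49 in Δopi3 IRE1 cells. RSM24 stayed called without the arrays above background for OPI3 (0.44, adjusted p = 0.028, limma), and MRP13 (0.39, adjusted p = 0.057) and MRPL49 (0.42, adjusted p = 0.11) were not. All 3 were called without the arrays over 10%.

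Whether the Δopi3 effect itself differed between ΔLD and IRE1 cells was a stricter test, since it also carries the spread of the untreated arrays. Of the 52 genes that fell in IRE1 cells, 51 had a less negative change in ΔLD cells. Those 52 were picked by their fall in IRE1 cells, which favours such an outcome in advance, so nothing is concluded from this count. At an unadjusted p under 0.05 (limma) there were 27 of the 66, a count given without the share of all genes at that threshold. After adjustment only RSM24 passed the test of the difference (0.33 ± 0.09, adjusted p = 0.044, limma). That call was lost in 19 of 27 fits that left out 1 array or 1 replicate of every group, among them those without replicate 1, 2 or 3 (adjusted p = 0.15, 0.78 and 0.079), and with E1A scaling (0.08, adjusted p = 0.96). Among all genes 1.79% were called higher and 2.32% lower in this difference. The members' median difference was 0.19, and that of all genes 0.03. With slide as a block 7 genes were called, RSM24 among them, without the arrays above background for OPI3 none was called, and without those over 10% there were 3. With E1A scaling the members' median turned to -0.06, against -0.22 for all genes.

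Choline in Δopi3 IRE1 cells went with higher mRNA for most of the mitochondrial ribosome. There, 55 of the 66 genes were higher and 1, MRP8, was lower with choline than without it, against 34% of all genes higher and 36.3% lower. The median change was 0.37 for the members and -0.02 for all genes. The rises took in 33 of 38 large-subunit and 22 of 27 small-subunit genes, among them 22 of the 23 mitochondria-specific ones. With E1A scaling 36 genes were called, all higher. That scaling shifts all genes of this comparison upward alike, so that count does not set the members apart from all genes. This comparison shares its Δopi3 arrays with the one against untreated cells, so the values are given side by side and not as a second observation.

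RSM26 had -0.80, -1.05 and -1.04 in choline-grown Δopi3 IRE1 cells, against -2.02, -1.96 and -1.64 in the same cells without choline. These groups do not overlap, and the rise of 0.91 ± 0.11 (adjusted p = 1.1e-06, limma) made it the gene with the largest change here as well. MRPL13 rose by 0.80 ± 0.08, with -1.05, -1.07 and -1.13 in choline-grown cells and -2.06, -1.91 and -1.68 without choline. MRPL8 (0.74 ± 0.06), MRPS35 (0.66 ± 0.07), MRPL15 (0.66 ± 0.08) and MRPL49 (0.61 ± 0.09) rose with no overlap between groups. MRPL15 encodes a mitochondria-specific protein of the large subunit. The changes of these 6 genes lay between 0.61 (MRPL49) and 1.09 (RSM26), all called, without the arrays above background for OPI3. In that fit the counts were 42 higher and 1 lower (median 0.40), and without those over 10% they were 51 and 1 (median 0.41).

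In Δopi3 ΔLD cells choline went with 25 higher and 3 lower genes, against 27.8% and 32.1% of all genes. With E1A scaling 1 was higher and 1 lower. The share of members higher was 37.9%, and the median change was 0.13 for the members and -0.03 for all genes. All 25 were also among the 55 of IRE1 cells (45.5% of those). MRPL13 had -1.03, -0.96 and -1.07 in choline-grown Δopi3 ΔLD cells and -1.66, -1.57 and -1.40 without choline. The arrays were separated, with a rise of 0.52 ± 0.08 (adjusted p = 3.8e-05, limma). MRPL8 (0.42 ± 0.06), RSM26 (0.38 ± 0.11), MRPL20 (0.32 ± 0.07), MRPL33 (0.31 ± 0.07) and MRP1 (0.31 ± 0.07) followed. MRPL33 is the counterpart of uL30, and MRP1 is a second small-subunit protein related to superoxide dismutases. MRP8, MRP20 and RSM19 fell. These 9 genes stayed called without the arrays above background for OPI3, MRPL13 at 0.64, MRPL33 at 0.29 and MRP8 at -0.94. Without replicate 2 of every group 6 genes were called in place of 28, with 12.5% of all genes higher and 21.5% lower in that fit. Leaving out the arrays above background for OPI3 gave 21 higher and 4 lower, and without those over 10% 26 and 5.

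The choline effect differed between the backgrounds for 13 genes, all with a lower signed change in ΔLD than in IRE1 cells. Of all genes, 2.21% were called in that direction and 4.78% in the other. The members' median difference was -0.24, and that of all genes -0.01. RSM26 showed -0.53 ± 0.16 (adjusted p = 0.0496, limma), MRP10, a small-subunit protein with cysteine motifs, -0.46 ± 0.13, and MRP13 -0.44 ± 0.09 (adjusted p = 0.0063). MRP10 was called higher with choline in IRE1 cells, while its change in ΔLD cells lay below 0 (-0.21 ± 0.09) and was not called. MRP13 had -0.41, -0.33 and -0.49 in choline-grown Δopi3 ΔLD cells against -0.45, -0.42 and -0.41 without choline, groups that overlap. In Δopi3 IRE1 cells it had -0.29, -0.40 and -0.51 with choline against -0.84, -0.87 and -0.85 without, groups that do not. With slide as a block 21 genes were called, and without the arrays over 10% for OPI3 14. With all arrays 36 of 66 had an unadjusted p under 0.05 (limma), a count given without the share of all genes at that threshold. Without replicate 1 or replicate 2 of every group none was called. Of all genes, 0.886% and 0.37% were lower in these fits and 2.48% and 0.725% higher.

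Choline-grown cells labelled Δopi3 were also set against untreated ones. In ΔLD cells no gene was called against untreated cells (4 at an unadjusted p under 0.05, limma), with 0.0322% of all genes higher and 0.483% lower. In IRE1 cells 1 was lower, with 0.225% of all genes higher and 2% lower, and 4 had an unadjusted p under 0.05. That gene was MRPL39, the counterpart of bL33, with -1.32, -1.37 and -1.48 in choline-grown Δopi3 IRE1 cells and -1.09, -1.07 and -1.12 in untreated IRE1 cells (change -0.29 ± 0.07, adjusted p = 0.040). Without the choline-grown array that carried OPI3 signal it was -0.25 and not called (adjusted p = 0.089 and 0.11 in the fits without arrays above background or over 10%), and with E1A scaling it was 0.16. The members' medians of -0.05 in ΔLD and -0.01 in IRE1 cells turned to 0.10 and 0.44 with that scaling. The corresponding change of MRPL39 in ΔLD cells was -0.28 ± 0.07 (adjusted p = 0.096). On the Δopi3 IRE1 arrays without choline MRPL39 had fallen (-0.37 ± 0.07 against untreated), and its change with choline, which shares those arrays, was 0.08 ± 0.07 and not called. Choline-grown Δopi3 ΔLD and Δopi3 IRE1 cells had no member called between them (0 at an unadjusted p under 0.05, limma), with 1.64% of all genes higher and 1.5% lower. The 66 differences lay between -0.13 and 0.11.

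**Figure D3:**
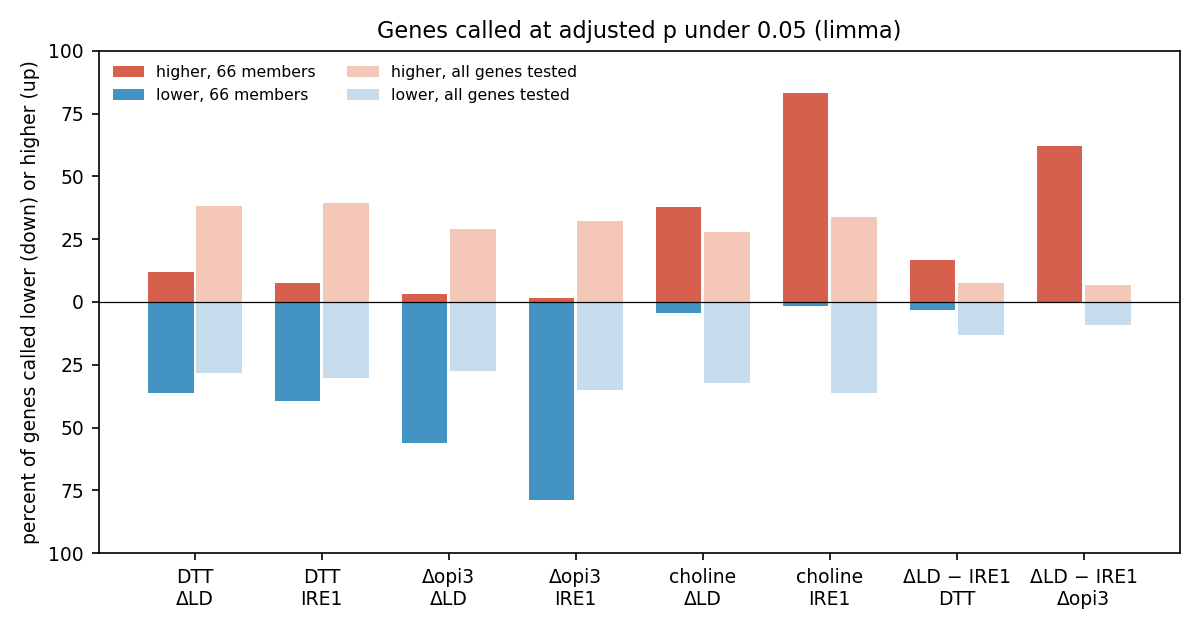
Percent of the 66 genes (dark bars) and of all genes tested (light bars) called higher (upward) or lower (downward) at an adjusted p under 0.05 in 8 comparisons. Members exceed all genes most for lower calls in Δopi3 cells, higher calls with choline in IRE1 cells, and higher calls in ΔLD against IRE1 cells labelled Δopi3 (62.1% against 6.91%).

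DTT went with both lower and higher mRNA among these genes. In ΔLD cells 24 genes were lower and 8 higher after 1 h in DTT, against 28.3% of all genes lower and 38.1% higher. In IRE1 cells 26 were lower and 5 higher, against 30.1% and 39.4% of all genes. Lower genes made up 36.4% of the members in ΔLD cells and 39.4% in IRE1 cells, so their share was near that of all genes, while higher genes were fewer (12.1% and 7.58%). The members' median minus that of all genes was -0.19 in both backgrounds. The direction rests on the scaling: with E1A scaling, which moved the median of all genes to 0.43 in ΔLD cells and 0.96 in IRE1 cells, 8 members in ΔLD cells and 61 in IRE1 cells were called, all higher. Since that scaling shifts all genes of a comparison alike, these counts do not set the members apart from all genes.

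The falls lay mostly in the large subunit. In ΔLD cells 19 of 38 large-subunit and 5 of 27 small-subunit genes were lower, and in IRE1 cells 20 of 38 and 6 of 27. Of the genes that fell, 21 did so in both backgrounds (87.5% of those in ΔLD and 80.8% of those in IRE1 cells). MRPL39 fell most in each, though in IRE1 cells its change turned to 0.36 with E1A scaling. It had -1.57, -1.53 and -1.62 in DTT-treated ΔLD cells and -1.20, -1.14 and -1.22 in untreated ΔLD cells (change -0.39 ± 0.07, adjusted p = 0.00011, limma). In DTT-treated IRE1 cells it had -1.54, -1.59 and -1.73, and in untreated IRE1 cells -1.09, -1.07 and -1.12 (change -0.53 ± 0.07, adjusted p = 3.5e-06). Neither pair of groups overlaps.

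Next to MRPL39, the falls in ΔLD cells were led by MRPL20, MRP1, MRPL35, MRP35 and MRPL13, between -0.34 and -0.32. MRPL35 is specific to mitochondria, and MRP35 is the counterpart of bL35. In IRE1 cells MRPL6 (-0.47 ± 0.09), RSM26 (-0.44 ± 0.11), MRPL37 (-0.42 ± 0.07), MRPL4 (-0.41 ± 0.06) and MRP1 (-0.38 ± 0.07) followed. MRPL4 was the tightest of these: its 3 arrays lay between -2.02 and -1.97 in DTT-treated and between -1.61 and -1.56 in untreated IRE1 cells. Apart from MRPL39, every fall named in this paragraph turned to a change above 0 with E1A scaling.

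Fewer genes rose with DTT. Apart from MRP8, the largest rise in ΔLD cells was that of RSM19, the counterpart of uS19. It had -0.47, -0.43 and -0.47 in DTT-treated ΔLD cells and -0.93, -1.03 and -0.90 in untreated ΔLD cells (change 0.50 ± 0.07, adjusted p = 8.6e-06, limma), with no overlap. MRPL10 (0.45 ± 0.11), RSM10 (0.40 ± 0.08), MRPL16 (0.25 ± 0.07) and MRPL22 (0.24 ± 0.07) also rose in ΔLD cells. These are counterparts of uL15, uS10, uL16 and uL22. In IRE1 cells MRPL50, MRP20, MRPL22 and RSM19 rose by 0.18 to 0.26. MRP8, MRPL22 and RSM19 were higher in both backgrounds.

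MRPL50, the counterpart of bL9, was called in opposite directions. It had -0.92, -1.03 and -0.98 in DTT-treated ΔLD cells and -0.76, -0.71 and -0.81 in untreated ΔLD cells, a change of -0.22 ± 0.07. In DTT-treated IRE1 cells it had -0.48, -0.58 and -0.71, and in untreated IRE1 cells -0.78, -0.79 and -0.96, a change of 0.26 ± 0.07. The opposite signs rest on the scaling. With E1A scaling, which shifts all genes of a comparison alike, both changes lie above 0. The difference between the effects was -0.48 ± 0.10 (adjusted p = 0.0042, limma), and MRPL50 was the only member to pass this test, where 1.72% of all genes were called higher and 6.59% lower. The call was lost with E1A scaling (adjusted p = 0.061, limma) and without replicate 2 of every group (adjusted p = 0.28). In DTT-treated cells taken alone, 11 members were higher and 2 lower in ΔLD than in IRE1 cells, against 7.47% and 13.2% of all genes. MRP8 (0.39 ± 0.13), MRPL6 (0.32 ± 0.09) and RSM19 (0.30 ± 0.07) led the higher ones, and MRPL50 (-0.39 ± 0.07) and MRPS16 (-0.25 ± 0.08), the counterpart of bS16, were the lower ones. This count fell to 1 without replicate 2 of every group and to 2 without replicate 2 of DTT-treated IRE1 cells. Of all genes, 1.35% were higher and 5.94% lower in the first of these fits. With E1A scaling no member was called and the members' median was -0.04, against 0.09 with scaling to the 75th percentile.

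**Figure D4:**
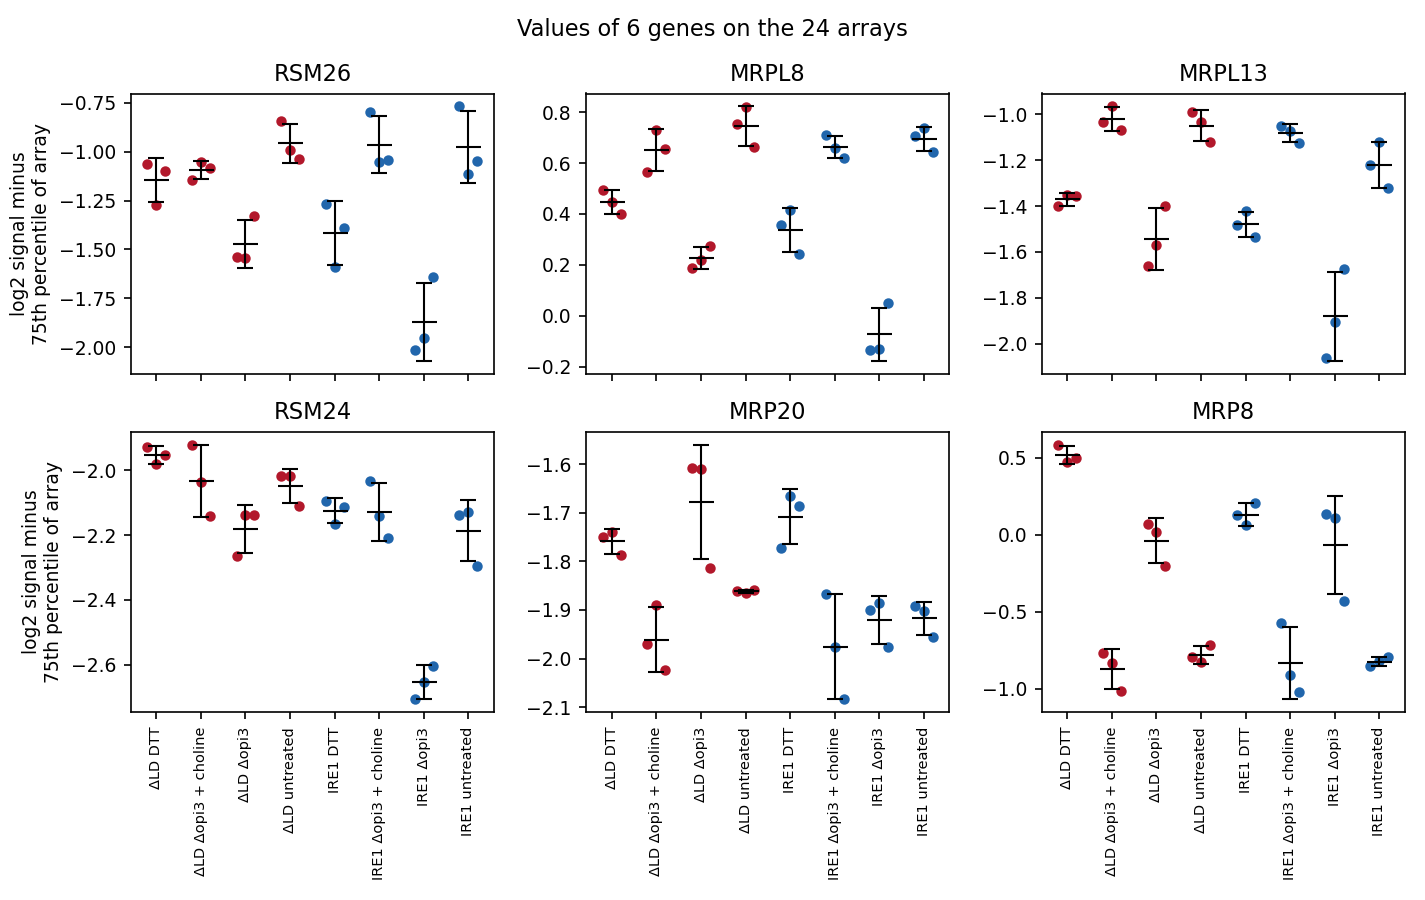
Log2 signal minus the array's 75th percentile for 6 genes in the 8 groups (points are arrays in replicate order 1 to 3; black bars are mean and SD, n = 3; vertical scales differ between panels). RSM26, MRPL8 and MRPL13 are lowest in Δopi3 IRE1 cells, RSM24 lies below all other groups there, and MRP8 is high after DTT and in Δopi3 cells.

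MRP8 did not follow the rest. It had 0.58, 0.47 and 0.50 in DTT-treated ΔLD cells and -0.80, -0.83 and -0.72 in untreated ΔLD cells, a rise of 1.30 ± 0.13 (adjusted p = 6.7e-08, limma) and the only change of over 2-fold among the 66 genes, where 6.22% of all genes rose by at least that much. In DTT-treated IRE1 cells it had 0.13, 0.06 and 0.21 and in untreated IRE1 cells -0.85, -0.82 and -0.80 (0.96 ± 0.13). It was also higher in Δopi3 cells, by 0.74 ± 0.13 in ΔLD cells and 0.76 ± 0.13 in IRE1 cells. The Δopi3 values were 0.07, 0.02 and -0.20 in ΔLD cells and 0.13, 0.11 and -0.43 in IRE1 cells, so that replicate 3, the array with the most OPI3 signal, was the lowest of each. The rises were 0.85 in ΔLD and 0.96 in IRE1 cells without the arrays above background for OPI3. Choline went with changes of -0.83 ± 0.13 in Δopi3 ΔLD cells and -0.77 ± 0.13 in Δopi3 IRE1 cells.

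Across the 8 group means, the correlation of a gene with the median of the other members was 0.88 at the median of the 66 genes, and above 0.8 for 43 of them. These 8 points share arrays and scaling, so the values are a description. MRPL40, the counterpart of uL24, had the highest (0.98). Below 0 were MRP8 (-0.53), MRPS16 (-0.38), MRP20 (-0.15) and MRPL50 (-0.12), and RSM19 was at 0.11. MRP20, the counterpart of uL23, had -1.61, -1.61 and -1.81 in Δopi3 ΔLD cells and -1.86, -1.87 and -1.86 in untreated ΔLD cells. All of the first lay above the second, a rise of 0.18 ± 0.06 (adjusted p = 0.018, limma), whereas in IRE1 cells its change was 0.00 ± 0.06. The rise in ΔLD cells was 0.25 without the arrays above background for OPI3. The range over the 8 group means was 0.48 at the median of the 66 genes and 1.39 in MRP8. RSM19 lies next to MRPS12, the only pair of members that are neighbours in the genome. MRPS12 was lower in Δopi3 cells (-0.21 ± 0.07 in ΔLD, -0.31 ± 0.07 in IRE1 cells), while RSM19 was not called there (0.16 ± 0.07 and -0.12 ± 0.07). Without the arrays above background for OPI3, MRPS12 was called in neither background and RSM19 was higher in ΔLD cells (0.29, adjusted p = 0.014, limma). MRP4, MRPL19 and MRPL51 each overlap another reading frame, whose RNA their probes may share.

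Other genes of mitochondrial translation were read from lists. Of all genes, 27.3% were lower and 29.2% higher with the Δopi3 label in ΔLD cells, and 35.1% and 32.2% in IRE1 cells. With DTT 28.3% of all genes were lower and 38.1% higher in ΔLD cells, and 30.1% and 39.4% in IRE1 cells. Of 13 ribosomal proteins with other names, 7 were lower and 2 higher with the Δopi3 label in ΔLD cells, and 9 and 1 in IRE1 cells (medians -0.18 and -0.31). Of 26 translation factors and tRNA synthetases, 5 were lower and 4 higher in ΔLD cells, and 7 and 4 in IRE1 cells (medians -0.01 and -0.10, the second turning to 0.14 with E1A scaling). Translational activators of single mitochondrial mRNAs, 16 in all, gave 6 lower and 4 higher in ΔLD cells and 7 and 2 in IRE1 cells, where their median of -0.11 turns to 0.12 with E1A scaling. In the fit without the arrays above background for OPI3, the 13 other-named proteins had 5 lower and 1 higher in ΔLD and 8 and 1 in IRE1 cells, the 26 factors and synthetases 4 and 3 in ΔLD and 6 and 3 in IRE1 cells, and the 16 activators 2 and 4 in ΔLD and 5 and 3 in IRE1 cells. With DTT, 15 of the 26 factors and synthetases were higher and 2 lower in ΔLD cells, and 10 and 3 in IRE1 cells, with medians of 0.20 and 0.14, above 0 with E1A scaling too, while the members' medians turn with it.

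The 35 genes of the respiratory chain and ATP synthase also differed between the backgrounds. In Δopi3 ΔLD cells 27 of them were higher and none lower than in Δopi3 IRE1 cells, with a median of 0.37. Of all genes, 6.91% were higher and 9.23% lower there. For the 136 cytosolic ribosomal protein genes none was called in that comparison (median 0.04). Without the arrays above background for OPI3, 8 of the 35 and 2 of the 136 were higher (medians 0.35 and 0.18), and without those over 10% 25 and 4. Cytosolic ribosomal proteins fell with the Δopi3 label in both backgrounds, 134 of 136 in ΔLD (median -0.63) and 135 of 136 in IRE1 cells (median -0.76), or 126 and 133 without the arrays above background for OPI3. They also fell with DTT, 135 of 136 in each (medians -1.06 in ΔLD and -1.15 in IRE1 cells), where the mitochondrial ribosomal proteins had medians of -0.11 and -0.12. The respiratory genes fell with DTT in 28 of 35 cases in ΔLD and 29 of 35 in IRE1 cells, although in IRE1 cells their median of -0.67 turned to 0.22 with E1A scaling. The shares of all genes for the Δopi3 label and DTT are those given for the lists above.

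**Figure D5:**
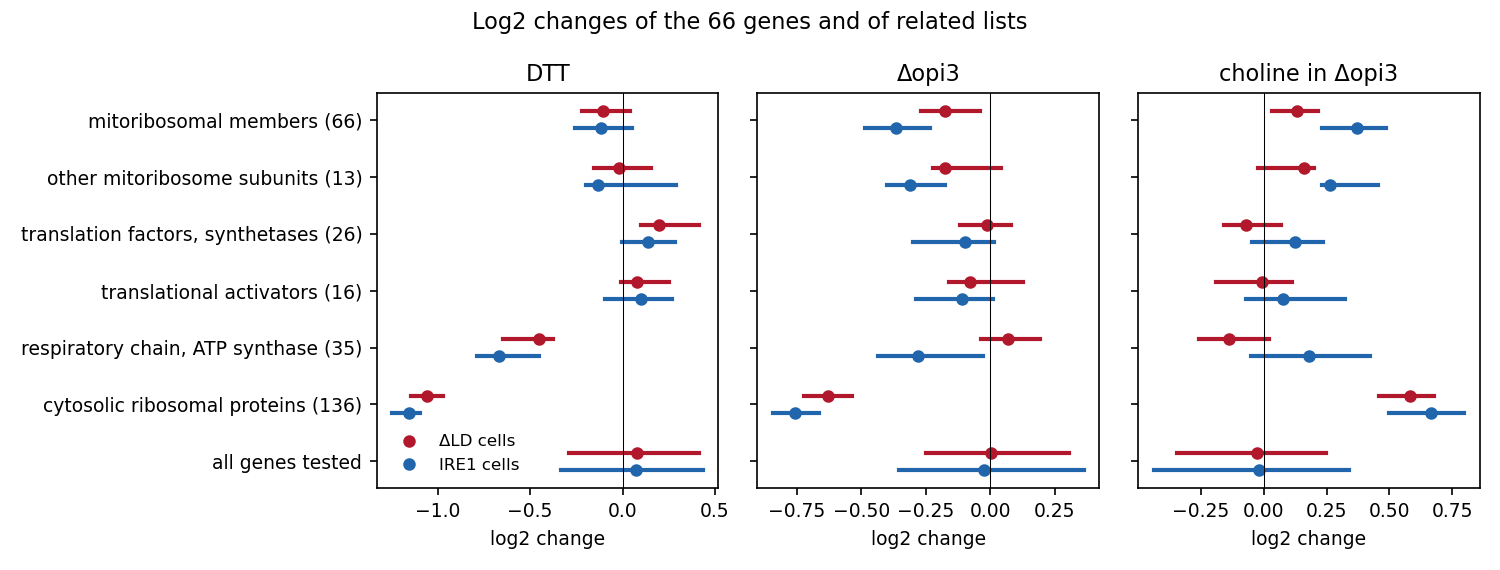
Median (points) and middle 50% (lines) of the log2 changes of the 66 genes and of 5 related gene lists and all genes tested, for DTT, the Δopi3 label and choline, in ΔLD cells and IRE1 cells (colours). With the Δopi3 label the 66 genes have medians of -0.18 in ΔLD and -0.36 in IRE1 cells and the respiratory list 0.07 and -0.28; with E1A scaling the DTT medians of the 66 genes turn, as does that of the respiratory list in IRE1 cells (from below 0 to 0.22).

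Some context genes outside the members were read on the same arrays, and a link of their changes to the members was not tested. PUF3 mRNA was not called with the Δopi3 label (0.25 ± 0.13 in ΔLD, 0.06 ± 0.13 in IRE1 cells), nor with DTT. HAP4, an activator of respiratory genes, fell with DTT by -1.36 ± 0.24 in ΔLD and -0.80 ± 0.24 in IRE1 cells, and was not called with the Δopi3 label. HAP1, the heme-responsive factor, rose with it by 0.29 ± 0.11 in ΔLD and 0.26 ± 0.11 in IRE1 cells. HAP1 was called in ΔLD cells (0.35) and not in IRE1 cells (0.25) without the arrays above background for OPI3, and without those over 10% in neither. SFP1, a regulator of ribosome synthesis, was lower in Δopi3 IRE1 cells (-0.21 ± 0.05) and not called in Δopi3 ΔLD cells (-0.09 ± 0.05). The call in IRE1 cells was lost without the arrays above background for OPI3 (-0.14). SFP1 rose with DTT by 0.35 ± 0.05 in ΔLD and 0.19 ± 0.05 in IRE1 cells. E1A scaling shifts all genes of a comparison alike. With it the falls in IRE1 cells of HAP4 with DTT and of SFP1 with the Δopi3 label are not kept. VAR1, the small-subunit protein gene of the mitochondrial genome, varied widely between arrays of a group (SD 0.06 to 0.82, n = 3) and was called higher with the Δopi3 label in ΔLD cells only (0.86 ± 0.36, adjusted p = 0.048, limma), which does not show a difference from IRE1 cells (0.68 ± 0.36) and was lost without the arrays that carried OPI3 signal (1.11 and 0.77).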

How the data were processed

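RNA from each sample (100 ng) was Cy3-labelled for 1 of 24 one-colour Agilent arrays on 3 slides, per the labels' protocols. The deposited spot intensity values came from Feature Extraction 10.7.1.1, background-subtracted and detrended within each array, per the file headers. A deposited list of log2 ratios (587 lines) holds none of the 66 genes and was not used further. Here spots flagged as outliers by the software were left out, log2 intensity minus the array's 75th percentile was averaged over the 9 to 10 spots of a probe, and genes with over 50% of spots above background on all arrays of a group were kept (6209). An 8-group model was fitted with limma 3.58.1 in R 4.3.3 (16 residual degrees of freedom; files read with the data.table package, version 1.17.8), for 12 comparisons and 3 differences of effects. The number of arrays limits precision.

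The members, lists and tests were chosen with earlier results of these data known. In each effect up to 6 rises and 6 falls were named, in other comparisons up to 3, by size among called genes whose groups did not overlap. Members with the strongest or weakest signal, MRP8, MRPL32, RSM22 and 6 context genes were added. Subunits were assigned by hand. The scanner files hold no mean signal column, so the normexp alternative used median signals. Alternatives changed scaling, background, filters, blocks and arrays. The pipeline was tested on simulated data. Same-numbered arrays shared a slide: their deviations correlated at 0.31 (median of 84 pairs, 63 above 0.1), against -0.13 for 168 other pairs.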

Additional observations from a re-analysis of the deposited data

Results flagged for a closer look

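In the DTT effect, 1 member differed between ΔLD and IRE1 cells by the interaction term of the limma model: MRPL50 at -0.48, with that sign within each of the 3 slides, and the call was lost without replicate 2 of every group. In the Δopi3 effect, 1 member did: RSM24 at 0.33, again with 1 sign within each of the 3 slides, but the call was lost without replicate 1, 2 or 3 of every group. In the choline effect, 13 members did, all with a lower signed change in ΔLD than in IRE1 cells and a difference below 0 within each of the 3 slides. For MRP10 the change in ΔLD cells was itself below 0. None of the 13 was called without replicate 1 or 2 of every group, or without the arrays above background for OPI3. In the large subunit these were MRPL1 (-0.38), MRPL4 (-0.27), MRPL8 (-0.31), MRPL11 (-0.37), MRPL15 (-0.38), MRPL17 (-0.39) and MRPL23 (-0.33). In the small subunit they were RSM26 (-0.53), MRP10 (-0.46), MRP13 (-0.44), MRPS35 (-0.41), MRPS28 (-0.39) and RSM24 (-0.38). Adjusted p-values were from limma over 6209 genes.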

How the results depend on the processing

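Counts below are members called of 66. With slide as a replicate block no named call was lost, and the count moved by over 1.5 times in 4 cases: the differences of DTT effects (2), of Δopi3 effects (7) and of choline effects (21), and choline-grown Δopi3 against untreated ΔLD cells (1). E1A scaling called 8 members with DTT in ΔLD cells and 61 in IRE1 cells, 1 with the Δopi3 label in ΔLD cells and 2 in IRE1 cells, 2 with choline in ΔLD cells and 36 in IRE1 cells, and 0 in ΔLD against IRE1 cells with DTT or the Δopi3 label, in the 3 differences of effects, and in choline-grown Δopi3 against untreated IRE1 cells. It turned 12 named changes: with DTT in IRE1 cells MRP1 (0.51), MRPL37 (0.47), MRPL39 (0.36), MRPL4 (0.48), MRPL6 (0.42) and RSM26 (0.45), with DTT in ΔLD cells MRP1 (0.013), MRP35 (0.030), MRPL13 (0.034), MRPL20 (0.012) and MRPL35 (0.013), and MRPL39 in choline-grown Δopi3 against untreated IRE1 cells (0.16). E1A scaling adds 1 constant per array, which differs between arrays of a group. Since it shifts all genes of a comparison alike, its counts do not set the members apart from all genes. With only the compared groups in the fit, 2 members were called in ΔLD against IRE1 cells labelled Δopi3, 3, 0 and 2 in the differences of DTT, Δopi3 and choline effects, and 0 in choline-grown Δopi3 against untreated IRE1 cells, with fewer arrays to estimate the spread. Quantile normalization gave 2 and 4 in the differences of DTT and Δopi3 effects, and both it and normexp gave 0 in choline-grown Δopi3 against untreated IRE1 cells. Without the arrays above background for OPI3 there were 25 with the Δopi3 label in ΔLD cells, 4 in ΔLD against IRE1 cells labelled Δopi3, 2 in the difference of DTT effects, 0 in those of Δopi3 and choline effects, and 0 in choline-grown Δopi3 against untreated IRE1 cells. Leaving out those over 10%, chosen after seeing the data, gave 3 in the difference of Δopi3 effects and 0 in that last comparison.

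The members' median minus that of all genes kept its sign except in 3 comparisons where it lay near 0: ΔLD against IRE1 cells with choline, the difference of DTT effects, and choline-grown Δopi3 against untreated IRE1 cells. It moved to -0.12 with normexp for DTT in IRE1 cells, and in choline-grown Δopi3 against untreated IRE1 cells to 0.009 with quantile normalization and 0.073 without the arrays carrying OPI3 signal, in either choice of arrays.

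Leaving out 1 array, or 1 replicate of every group, gave counts of 19 to 32 and 19 to 34 for DTT in ΔLD and IRE1 cells, and in the same order 13 to 40 and 49 to 57 for the Δopi3 label, 6 to 31 and 47 to 56 for choline, and 0 and 0 to 1 for choline-grown Δopi3 against untreated cells. They were 0 for ΔLD against IRE1 cells untreated or with choline, 1 to 16 with DTT and 1 to 43 with the Δopi3 label, and 0 to 2, 0 to 9 and 0 to 23 for the differences of DTT, Δopi3 and choline effects. The medians minus all genes ranged from -0.23 to -0.14 and -0.25 to -0.13 for DTT in ΔLD and IRE1 cells, and in the same order -0.24 to -0.13 and -0.42 to -0.27 for the Δopi3 label, 0.12 to 0.21 and 0.31 to 0.45 for choline, and -0.07 to -0.004 and -0.009 to 0.073 for choline-grown Δopi3 against untreated cells. They ranged from 0.014 to 0.12, 0.05 to 0.11, 0.24 to 0.27 and -0.03 to 0.06 for ΔLD against IRE1 cells untreated, with DTT, with the Δopi3 label and with choline, and -0.04 to 0.05, 0.11 to 0.22 and -0.26 to -0.18 for the differences of DTT, Δopi3 and choline effects. The call of MRPL50 in the difference of DTT effects was lost with E1A scaling (adjusted p = 0.061, limma) and without replicate 2 (0.28). That of RSM24 in the difference of Δopi3 effects was lost with E1A scaling (0.96), with only the compared groups (0.15), without the arrays above background for OPI3 (0.22), and in 19 of 27 fits that left arrays out, those without replicate 1, 2 or 3 included. The cause of these changes was not tested. All 66 genes were above background on every array, and the 3 arrays of a group limit the precision.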
